A study of Mus musculus with 28 samples.

Results

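The transcripts that rose and fell when Gfi1 and Atoh1 were switched on together were measured in the doxycycline-inducible mouse embryonic stem cell line iG+A. The comparison used the 4 RNA-seq libraries that the labels assign to this line, 2 from doxycycline-treated (Dox) and 2 from untreated (No Dox) embryoid bodies, out of 28 libraries from 7 lines. The line was derived from the A2Lox parental cells and carries a single inducible cassette in which Gfi1, a 3xFlag-tagged Atoh1 and a nuclear mVenus reporter are separated by 2A peptides. Embryoid bodies (EBs), the free-floating aggregates in which stem cells begin to form the germ layers, received 2 µg/ml Dox for 48 h from day 4 and were collected on day 6, as were untreated EBs of the same line. Replicates were different clones of the line. RNA of Dox EBs came from mVenus+ cells purified by flow cytometry and RNA of No Dox EBs from whole unsorted EBs, so the effect of Dox and the effect of sorting cannot be told apart within a line. The lines iAtoh1 and iGfi1, with 1 of the factors each, and iGPA, with Gfi1, Pou4f3 and Atoh1, were treated in the same way against untreated EBs of their own, and served for comparison.

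Atoh1 is a proneural basic helix-loop-helix (bHLH) factor that binds E-box motifs and switches on genes of the sensory hair cells (HCs) of the ear and of several classes of neurons. Gfi1 is a zinc-finger factor whose SNAG domain recruits corepressors. It is needed for the survival of HCs and is a known repressor in blood cells. HCs and neurons share many Atoh1-responsive genes, among them ligands of the Notch pathway, through which a differentiating cell signals to its neighbours.

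The 4 libraries held about 30.3 M to 35.3 M reads, against 30.3 M to 48.0 M across the series, as estimated from the step that 1 read makes in the lowest deposited values. Levels below are normalized counts, obtained by undoing the deposited log2 transformation. Fold changes are log2 values on the log2(normalized count + 1) scale with their standard error (SE), which understates the change of low genes. Over 16837 genes with at least 10 normalized counts in 2 or more libraries, the distance between the iG+A Dox libraries was 83.7, as the root of the summed squared log2 differences. It was 110.8 to 114.4 from these libraries to those of iGPA Dox, 130.4 to 137.4 to iGfi1 Dox, 142.8 to 147.1 to iAtoh1 Dox and 155.8 to 171.5 to the No Dox libraries of iG+A.

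Both factors were strongly induced. Atoh1 (chromosome 6, 64679140-64681227, plus strand; build mm9, NCBIM37) was at 83.6 and 120.1 normalized counts without Dox and at 14280 and 16670 with Dox, a log2 fold change of 7.25 ± 0.33. Gfi1 (chromosome 5, 108145674-108155056, minus strand) moved from 102 and 119 to 9936 and 10350 (6.51 ± 0.25). The groups did not overlap for either gene, and cassette and endogenous transcripts of each are counted together. Without Dox, Atoh1 was at 83.6 and 120 in iG+A, at 76.1 and 39.2 in iAtoh1 and at 8.05 and 5.01 in iGfi1, the line without an Atoh1 cassette. The Dox effect on Atoh1 differed from that in iAtoh1 by −1.24 (adjusted p = 0.0821), and that on Gfi1 from that in iGfi1 by −0.81 (adjusted p = 0.0975), neither of which passed the threshold.

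A gene was called changed at an adjusted p (limma, Benjamini-Hochberg) under 0.05 and an absolute log2 fold change of at least 1.5. Dox effects of different lines are compared below as signed log2 values. A smaller effect can therefore be a stronger fall, and a larger effect a weaker fall. With Dox, 1238 genes rose in iG+A, 7.35% of the genes tested, and 833 fell, 4.95%, so that 59.8% of the changes were upward. The median log2 fold change was 2.40 over the genes that rose and −2.18 over those that fell, beside −0.01 over all genes tested. The Dox and No Dox libraries of the line did not overlap in 1235 of the genes that rose and 831 of those that fell. The list counts below are to be read against these percentages. In a bulk sample, fewer cells of a type and less RNA per cell cannot be told apart.

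The 15 largest rises, among genes with a mean of at least 50 normalized counts with Dox, were of mixed function. Sst, which encodes the neuropeptide somatostatin, moved from 1.16 and 3.37 to 1826 and 2079 (9.31 ± 0.73), and Wnt10a, a secreted Wnt ligand, from 0 and 2.24 to 615 and 1018 (8.78 ± 0.72). Rbp3, a retinoid-binding protein of photoreceptors, moved from 5.80 and 5.60 to 2347 and 2445 (8.48 ± 0.56), and Btbd17 from 2.35 and 17.0 to 2576 and 3528 (8.60 ± 0.80). Both No Dox libraries were at or near 0 for most of these genes. Acvr1c, a receptor of the activin and nodal family, moved from 1.89 and 1.83 to 1369 and 527 (8.22 ± 0.78), and Dbx1, a homeobox gene that patterns the neural tube, from 2.32 and 2.24 to 892 and 764 (7.98 ± 0.93). Pcdhgb2, Scx, Gper1 and Flrt1 were listed at 0 in both No Dox libraries. With Dox, Scx, a bHLH factor of tendon progenitors, was at 465 and 393, Gper1, a membrane oestrogen receptor, at 187 and 415, and Flrt1, an adhesion molecule, at 252 and 232. Pcdhgb2 was at 1095 and 1137, but the gamma-protocadherins share their 3′ exons, so its reads could belong to other members of the cluster. Helt and Insm1, described below, and Rtl5, 2900052N01Rik and Pla2g2f made up the rest.

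**Figure D1:**
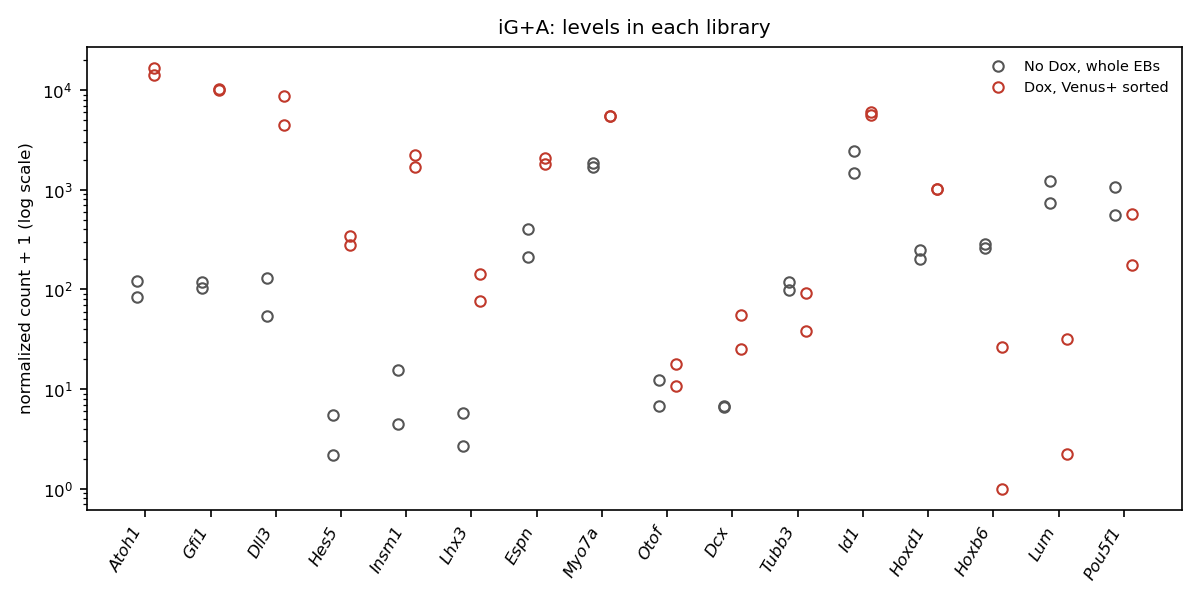
Normalized counts plus 1 (log axis) of 16 genes in each of the 4 iG+A libraries, with No Dox whole EBs in grey and Dox mVenus+ cells in red, 1 point per library. Insm1, Dll3, Hes5, Lhx3 and Espn were higher in both Dox libraries than in either No Dox library, while the points of Otof overlapped between the groups.

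Most of the tested genes of the Notch pathway rose. Of 28 tested ligands, receptors, modifiers and targets, 18 rose and none fell by limma (none with an unadjusted p below 0.05 either), with a median log2 fold change of 2.14. Over the same genes, 12 rose in iAtoh1 (median 0.87), 3 in iGfi1 (0.65) and 15 in iGPA (2.23). Among the ligands, Dll3 (chromosome 7, 29076673-29087257, minus strand) moved from 53.4 and 129 to 4418 and 8832 (6.22 ± 0.68) and Dll1 from 31.3 and 79.6 to 586 and 910.2 (3.84 ± 0.57). Dll4 moved from 91.7 and 112 to 728 and 997 (3.06 ± 0.36) and Jag2 from 408 and 483 to 4774 and 5484 (3.52 ± 0.23). All 4 ligands were higher in both Dox libraries than in either No Dox library. Jag1 was at 374 and 575 and then at 1339 and 1402 (1.56 ± 0.30), and its call was lost without No Dox replicate 1 (1.25). Among the Hes and Hey repressors that Notch signalling controls, Hes5 (chromosome 4, 154335032-154336480, plus strand) moved from 1.16 and 4.50 to 280.1 and 343 (6.50 ± 0.89), Heyl from 10.4 and 19.1 to 1062 and 1881 (6.55 ± 0.49) and Hey1 from 313 and 424 to 3152 and 3087 (3.09 ± 0.30). Hes6, a relative that opposes Hes1, moved from 279 and 377 to 3197 and 5255 (3.66 ± 0.20). Helt, a related bHLH repressor of the midbrain, moved from 0 and 1.38 to 205 and 1201 (8.33 ± 0.88), with both Dox libraries above both No Dox libraries.

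The glycosyltransferases that modify Notch receptors were among the genes that rose, Lfng by 4.82 ± 0.38 and Mfng by 4.49 ± 0.27, as were the feedback inhibitor Nrarp (2.38 ± 0.27) and Dner, a noncanonical ligand (3.31 ± 0.50). The receptor Notch4 rose by 1.80 ± 0.44, a call lost without Dox replicate 2 (1.47), whereas Notch1, Hes1 and Rbpj did not pass the threshold. The receptor Notch1 was at 1322 and 2008 without Dox and at 2636 and 4744 with Dox (1.12 ± 0.27, adjusted p = 0.00304), under the size threshold. Hes1 was at 664 and 931 and then at 1158 and 1510 (0.75 ± 0.36, adjusted p = 0.101), and Rbpj, the DNA-binding partner of Notch, at 4041 and 3898 and then at 6235 and 4768 (0.46 ± 0.10, adjusted p = 0.000883). The Dox effect was larger in iG+A than in iAtoh1 for 7 of the 28 genes, among them Jag2, Hey1 and Nrarp, against 4.44% of all genes. It was larger than in iGfi1 for 13, among them Dll3, Dll4, Hes5 and Hes6, against 5.17%, and none of the 28 differed past the threshold from iGPA, with 3 higher and 3 lower with an unadjusted p below 0.05. With 1 of the 4 libraries left out, 15 to 19 of the genes rose.

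Promoters of 2 Notch genes and 2 HC markers that rose are printed to show the kinds of motif the factors are known to bind, and were chosen because they hold one. The sequences are from RefSeq, 250 bases before to 50 after an annotated start, in a table on GRCm38.p6. Positions are those of an exact match to NCBIM37, the build named for the deposited values. Capitals mark CAGCTG, an E-box, which reads the same on both strands, and AATCAC (or GTGATT on the other strand), the core of the Gfi1 site. In all 32851 promoters of the table, 16.3% held CAGCTG and 10.4% held AATCAC on either strand.
Dll3, chr7:29086755-29087054, minus strand: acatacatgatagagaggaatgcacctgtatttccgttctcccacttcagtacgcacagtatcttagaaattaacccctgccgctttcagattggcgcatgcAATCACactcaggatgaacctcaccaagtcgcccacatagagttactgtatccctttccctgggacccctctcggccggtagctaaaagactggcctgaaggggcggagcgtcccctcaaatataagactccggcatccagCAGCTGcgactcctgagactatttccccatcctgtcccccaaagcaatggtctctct
Hes6, chr1:93309750-93310049, minus strand: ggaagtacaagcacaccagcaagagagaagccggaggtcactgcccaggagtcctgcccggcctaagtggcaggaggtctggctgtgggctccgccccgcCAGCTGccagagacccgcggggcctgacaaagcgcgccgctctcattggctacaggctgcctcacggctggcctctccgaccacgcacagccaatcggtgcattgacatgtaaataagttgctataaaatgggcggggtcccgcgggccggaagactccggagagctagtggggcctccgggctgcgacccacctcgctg
Espn, chr4:151526449-151526748, minus strand: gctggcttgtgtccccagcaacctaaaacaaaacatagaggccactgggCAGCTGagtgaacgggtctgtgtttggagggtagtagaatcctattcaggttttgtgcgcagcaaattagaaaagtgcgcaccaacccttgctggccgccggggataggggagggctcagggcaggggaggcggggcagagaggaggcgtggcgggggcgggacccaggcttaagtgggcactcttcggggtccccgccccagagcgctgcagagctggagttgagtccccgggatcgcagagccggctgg
Myo7a, chr7:105267954-105268253, minus strand: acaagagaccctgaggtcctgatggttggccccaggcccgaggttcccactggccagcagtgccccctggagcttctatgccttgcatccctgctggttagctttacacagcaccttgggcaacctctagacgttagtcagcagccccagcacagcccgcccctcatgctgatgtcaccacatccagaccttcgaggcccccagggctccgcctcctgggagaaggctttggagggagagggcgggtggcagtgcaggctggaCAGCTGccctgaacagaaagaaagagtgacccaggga
The Dll3 promoter held both motifs, 7 and 148 bases before the annotated start, and the others held the E-box. These are matches of letters and not evidence of binding. A promoter was in the table for 74.0% of the genes that rose and 74.2% of those that fell, under 80%, so a comparison of motif shares between these groups was void and none is given.

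HC markers were induced unevenly. Of the 6 that the study itself chose to follow, which are therefore no independent evidence of a direction, 3 rose. Lhx3, a LIM homeobox factor of HCs (chromosome 2, 26055732-26063769, minus strand), moved from 1.66 and 4.81 to 76.0 and 143 (4.74 ± 0.77). Espn, an actin-bundling protein of stereocilia (chromosome 4, 151494440-151526480, minus strand), moved from 212 and 407 to 1816 and 2067 (2.72 ± 0.35), and Myo7a, an unconventional myosin of the hair bundle (chromosome 7, 105199570-105268034, minus strand), from 1696 and 1858 to 5459 and 5504 (1.63 ± 0.13). Myo7a was thus well above the filter in whole EBs without Dox. Myo6, another HC myosin, was at 2114 and 2869 and then at 5764 and 3970 (0.96 ± 0.20, adjusted p = 0.000769), under the size threshold. Otof, which encodes otoferlin of the HC synapse, was at 5.80 and 11.2 and then at 17.0 and 9.76 (0.61 ± 0.48, adjusted p = 0.328), with overlapping groups. Cdh23, of the tip link between stereocilia, was at 68420 and 28000 and then at 31940 and 21160 (−0.75 ± 0.58, adjusted p = 0.315).

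The Dox effects on the 3 markers that rose were set against those in iAtoh1. The difference was 2.84 ± 0.50 for Espn (adjusted p = 0.000728), 1.59 ± 0.18 for Myo7a (adjusted p = 1.17e-05) and 3.32 ± 1.09 for Lhx3 (adjusted p = 0.0466). The Myo7a difference fell below the size threshold against all untreated libraries (1.47) or without iAtoh1 Dox replicate 1 (1.47), and the Lhx3 difference was lost without iAtoh1 No Dox replicate 2 (2.45, adjusted p = 0.184), without iAtoh1 Dox replicate 2 (2.27, adjusted p = 0.205), without No Dox replicate 1 (2.76, adjusted p = 0.168) or without Dox replicate 2 (2.87, adjusted p = 0.143). It was also lost with the replicate number as a block (adjusted p = 0.0623), with a pseudocount of 0.5 (adjusted p = 0.159), with quantile normalization (adjusted p = 0.0678) and in a fit of the compared lines alone (adjusted p = 0.178). Against iGfi1, the difference was 4.53 ± 1.09 for Lhx3 (adjusted p = 0.00569) and 1.54 ± 0.50 for Espn (adjusted p = 0.029). That for Myo7a, 1.28 ± 0.18, was under the size threshold. The Espn difference fell below it with quantile normalization (1.45), against all untreated libraries (1.22) or without No Dox replicate 1 of iG+A (1.08). Against iGPA, the effect on Otof was lower by 4.46 ± 0.68 (adjusted p = 0.000586), where Otof rose by 5.07.

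Of 24 transcription factors of HCs, 11 rose and 3 fell in iG+A (median 0.99), against 3 up in iAtoh1, 1 in iGfi1 and 11 in iGPA. Insm1, a zinc-finger factor of outer HCs, neurons and endocrine cells, moved from 3.48 and 14.6 to 2233 and 1689 (7.86 ± 0.49). Eya1, a transcriptional cofactor of the otic placode, moved from 250.2 and 259.9 to 886 and 1200 (2.01 ± 0.29). Barhl1, a homeobox gene of HCs and cerebellar granule cells, moved from 19.7 and 4.48 to 164 and 132 (3.79 ± 0.48), Isl1, a LIM homeobox factor, from 203 and 599.5 to 4187 and 2317 (3.15 ± 0.45) and Pou4f1, a POU factor of sensory ganglia, from 32.5 and 40.4 to 221 and 323 (2.85 ± 0.50). Gata3, a zinc-finger factor of the inner ear, was at 447 and 518 and then at 1143 and 454 (0.58 ± 0.30, adjusted p = 0.134). Among the falls was Gfi1b, the paralogue of Gfi1 in red cells and platelets, from 2569 and 1802 to 178 and 294 (−3.23 ± 0.32).

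Of 34 genes of the hair bundle and its transduction machinery, 6 rose and 1 fell, with a median of −0.09, whereas 15 rose in iGPA with a median of 0.92. The number that fell was 3 without No Dox replicate 2 and 0 without No Dox replicate 1 or against all untreated libraries. Pcdh15, the cadherin that joins Cdh23 in the tip link, moved from 83.1 and 65.3 to 1304 and 831 (3.80 ± 0.36). Tmie, of the transduction channel complex, moved from 4.64 and 3.36 to 154 and 105 (4.69 ± 0.44), Cib2, its calcium-binding partner, from 135 and 122 to 522 and 461 (1.93 ± 0.18) and Fbxo2, an F-box protein of the cochlea, from 24.4 and 31.4 to 402 and 431 (3.86 ± 0.30). The channel subunits Tmc1, at 16.5 and 8.49 and then 9.07 and 12.7, and Tmc2, at 31.3 and 16.8 and then 18.1 and 24.4, did not pass the threshold. For 10 of the 34 genes the Dox effect was smaller than in iGPA, against 1.60% of all genes. The 10 were Myo3b, Myo15, Ush1c, Ush1g, Tmc2, Tmie, Eps8l2, Stard10, Tomt and Grxcr2. Tmc2 had a log2 fold change of −0.12 in iG+A and 3.14 in iGPA, and Grxcr2, of the stereociliary base, −0.54 and 5.51.

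Of 23 genes of the HC synapse and ion handling, 6 rose and none fell by limma (2 with an unadjusted p below 0.05). The median was 0.61. Atp2b2, the calcium pump of the hair bundle, moved from 38.5 and 19.1 to 452 and 258 (3.60 ± 0.35). Chrna9, a subunit of the receptor for efferent input, moved from 2.32 and 3.36 to 28.7 and 46.4 (3.30 ± 0.78), and Pclo, a scaffold of the active zone, from 125 and 145 to 687 and 399 (1.95 ± 0.33). The Dox libraries were above both No Dox libraries for all 3. Cabp1, Cabp2 and Otof had smaller effects than in iGPA. The rise of Cabp2 in iG+A, 2.07, was 0.96 with a pseudocount of 5 and 1.15 without No Dox replicate 2. Its call was also lost with the replicate block (adjusted p = 0.0702) and in a fit of iG+A alone (adjusted p = 0.124).

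The proneural bHLH factors were raised in part. Of 12 tested, 5 rose and none fell by limma (none with an unadjusted p below 0.05 either), with a median of 0.39, against 6 rises in iAtoh1 (median 1.58) and 6 in iGPA (1.34). Olig3, of the dorsal neural tube, moved from 2.32 and 2.25 to 147 and 182 (5.65 ± 0.76), Nhlh1 from 9.28 and 7.85 to 415 and 397 (5.41 ± 0.51) and Nhlh2 from 1.16 and 0 to 54.2 and 48.8 (5.16 ± 0.64). Neurod1, which acts late in neuronal differentiation, moved from 23.2 and 34.8 to 701 and 211 (3.71 ± 0.61). Neurog1, an early proneural gene, was near the floor, at 0 and 1.12 and then 0 and 1.22, and did not pass the threshold. It does not stand for the other early genes, and not all of the 5 rises are named here.

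Of the 3 neuronal markers that the study followed, 1 rose. Dcx, a microtubule-binding protein of young neurons, moved from 5.80 and 5.60 to 54.3 and 24.4 (2.48 ± 0.44). Tubb3, neuronal beta-tubulin, was at 98.6 and 117 without Dox and at 37.2 and 91.5 with Dox (−0.86 ± 0.36, adjusted p = 0.0629), and its fall passed the threshold without Dox replicate 2 (−1.50). Barhl2, a homeobox gene of retina and spinal cord, was at 2.32 and 0 and then at 0 and 12.2 (1.00 ± 1.08, adjusted p = 0.487). Tubb3 rose by 2.22 in iAtoh1, and the effect in iG+A was lower than that by 3.08 ± 0.51 (adjusted p = 0.000429).

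Of 31 neuronal differentiation factors and RNA regulators, 12 rose and 2 fell (median 0.88). Miat, a nuclear long noncoding RNA, moved from 4.64 and 26.9 to 1779 and 2180 (7.30 ± 0.60), and Elavl3, a neuronal RNA-binding protein, from 77.7 and 53.8 to 495 and 304 (2.57 ± 0.54). The factors Ebf1 (2.56 ± 0.41) and Ebf3 (2.49 ± 0.25) and Rcor2, a corepressor partner of SNAG proteins, from 2311 and 3937 to 12950 and 14600 (2.19 ± 0.16), rose as well. Rbfox1, a splicing regulator, fell from 578 and 347 to 68.4 and 58.0 (−2.81 ± 0.56). Of 27 genes of the neuronal cytoskeleton and growth, 9 rose and 2 fell, with a median of 0.10. Cntn2, an axonal adhesion molecule, moved from 23.5 and 42.9 to 2190 and 1513 (5.79 ± 0.42), Prph, the intermediate filament of peripheral neurons, from 327 and 189.5 to 3077 and 1575 (3.14 ± 0.43) and Map2, a dendritic protein, from 64.9 and 105 to 458 and 298 (2.15 ± 0.44). Gap43, a protein of growth cones, fell from 1045 and 683 to 49.0 and 45.1 (−4.14 ± 0.37). The count of 9 went to 5 without Dox replicate 2.

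Of 48 genes of synaptic vesicles and secretion, 14 rose and 1 fell (median 0.91), against 5 up in iAtoh1, 2 in iGfi1 and 19 in iGPA. Th, the first enzyme of catecholamine synthesis, moved from 8.12 and 10.1 to 524 and 240.4 (5.15 ± 0.67), and Pcsk1, a prohormone convertase, from 1.13 and 4.35 to 54.7 and 68.6 (4.21 ± 0.67). The synaptotagmin genes Syt13 from 179 and 232 to 1763 and 1714 (3.09 ± 0.17) and Syt7 from 198 and 407 to 2724 and 1839 (2.97 ± 0.31) and Syp, synaptophysin, from 48.7 and 71.7 to 288 and 294 (2.28 ± 0.36), were higher too. Transmitter genes of more than 1 class were among the rises, with Slc17a7, a vesicular glutamate transporter, up by 2.91 ± 0.38 and Gad2, which makes GABA, up by 2.87 ± 0.46.

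Of 39 potassium channel genes, 10 rose and 1 fell, with Kcng1 from 2.32 and 10.1 to 281 and 548 (6.02 ± 0.56) and Kcnc4 from 8.10 and 8.16 to 494 and 132 (4.81 ± 0.52). Of 28 sodium and calcium channel genes, 8 rose and 1 fell. Cacna1h, a low-voltage-activated calcium channel, moved from 820.1 and 929 to 7249 and 5952 (2.91 ± 0.12), Scn4b, a sodium channel beta subunit, from 10.4 and 16.8 to 163 and 250.1 (3.83 ± 0.43), and Cacna2d1, an auxiliary subunit, fell from 2185 and 1583 to 412 and 222 (−2.62 ± 0.25). Of 43 genes of axon guidance and adhesion, 11 rose and 4 fell. Dcc, a netrin receptor, moved from 82.5 and 50.7 to 4351 and 1898 (5.45 ± 0.43), Robo2, a Slit receptor, from 1232 and 918 to 19060 and 11950 (3.83 ± 0.28) and its ligand Slit1 from 90.5 and 146 to 1170 and 1990 (3.72 ± 0.42). Sema5a (−2.89 ± 0.30), the semaphorin and VEGF receptor Nrp1 (−2.54 ± 0.43) and Efna1 (−2.14 ± 0.33) fell.

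Some factors of sensory neurons and of the otic placode rose as well. Of 25 genes of sensory-neuron identity, 12 rose and 1 fell (median 1.54). Prrxl1, a homeobox gene of pain-sensing neurons, moved from 3.12 and 0 to 287 and 142 (6.64 ± 0.70), and Shox2, of touch-sensing neurons, from 10.8 and 13.9 to 859 and 769.6 (5.94 ± 0.35). Of 23 otic and placode factors, 9 rose and none fell by limma (none with an unadjusted p below 0.05 either), with a median of 1.49, against 2 up in iAtoh1, 3 in iGfi1 and 7 in iGPA. Dlx3, a homeobox gene of the preplacodal region, moved from 117 and 165 to 4935 and 3382 (4.87 ± 0.34), and Hmx3, needed for the vestibular organs, from 1.16 and 2.24 to 207 and 81.8 (5.63 ± 0.68). Eya2, a relative of Eya1, moved from 173 and 209 to 1509 and 1360 (2.91 ± 0.37) and Pax8, an early otic gene, from 1.16 and 0 to 40.4 and 81.8 (5.32 ± 0.89). Pax2, its relative in the otic vesicle, was at 5.80 and 16.8 and then at 1.06 and 8.54 (−1.31 ± 0.74, adjusted p = 0.165).

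Of 31 anterior patterning factors, 11 rose and 4 fell (median 0.94). Pax3 from 13.4 and 84.3 to 859.9 and 1009 (4.73 ± 0.82) and Pax7 from 2.32 and 10.1 to 46.8 and 128 (3.70 ± 0.58), of the dorsal neural tube and neural crest, were higher, as was Nkx2-2, of the ventral neural tube, from 0 and 0.46 to 23.5 and 49.8 (4.87 ± 0.94). The count of 11 went to 7 without No Dox replicate 1, and that of 4 to 1 without Dox replicate 1 and to 2 without No Dox replicate 2. Of 18 neural progenitor genes, 5 rose and 3 fell (median 0.60). Sox1, of the neural plate, moved from 2.32 and 58.3 to 1158 and 569 (5.86 ± 1.09), whereas Sox2, shared by progenitors and pluripotent cells, was at 576 and 1160 and then at 102 and 339 (−2.13 ± 0.72), a fall whose call was lost without No Dox replicate 2 (−1.62, adjusted p = 0.169) or without Dox replicate 1 (−1.27, adjusted p = 0.262). Slc1a3, a glial glutamate transporter, fell from 5971 and 3690 to 1013 and 454 (−2.79 ± 0.43). Only 3 progenitor genes rose without No Dox replicate 1 or without Dox replicate 2.

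**Figure D2:**
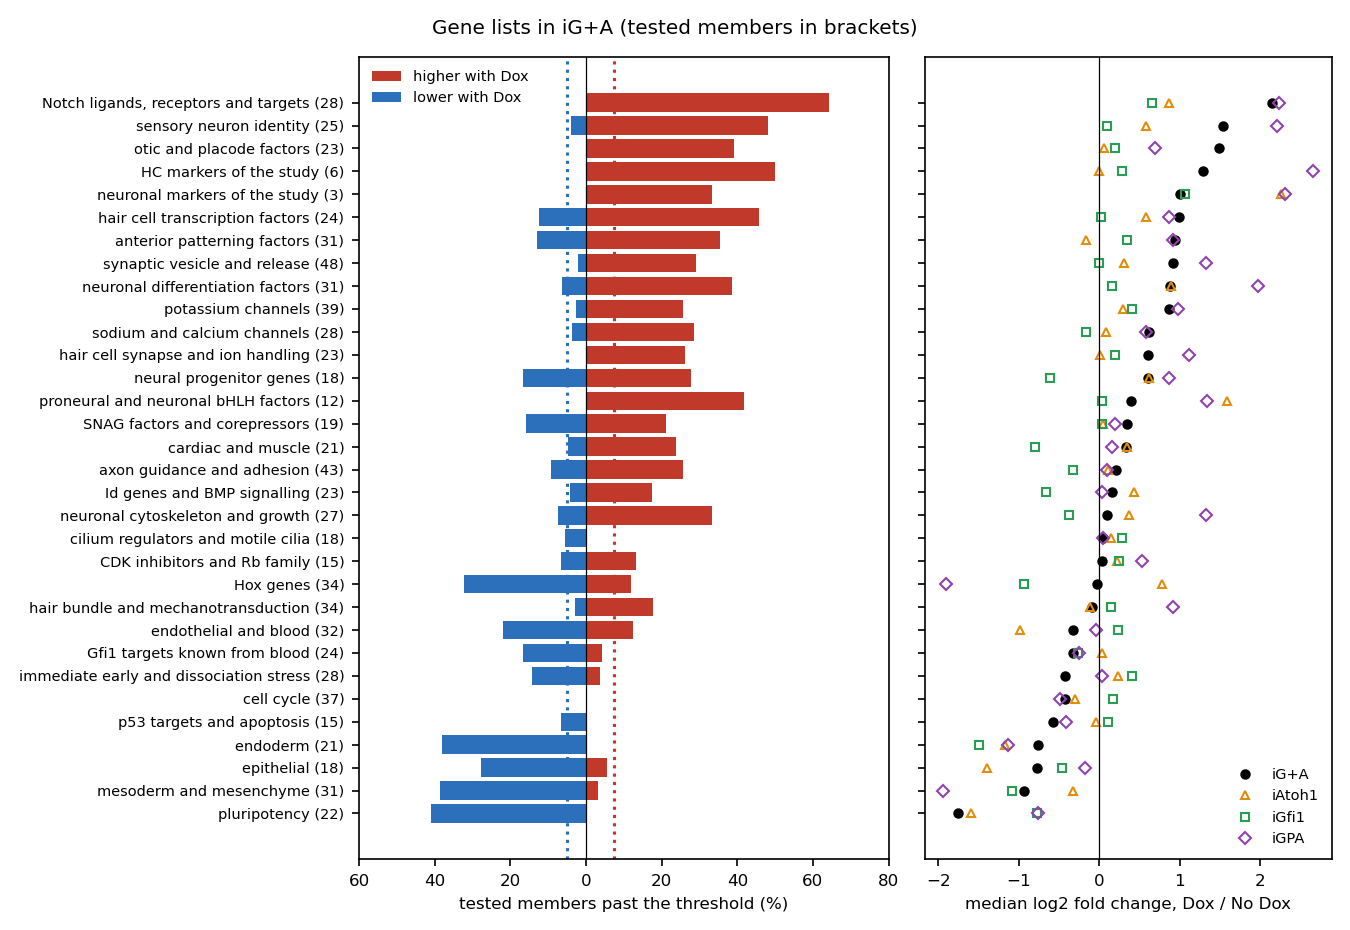
Gene lists in iG+A. Left, percent of tested members (number in brackets) that rose (red) or fell (blue) with Dox, with dotted lines at the shares over all genes tested, 7.35% and 4.95%. Right, median log2 fold change of each list in iG+A, iAtoh1, iGfi1 and iGPA. Among the 32 lists, the median in iG+A ran from −1.75 for pluripotency genes to 2.14 for Notch genes.

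Id proteins bind bHLH factors and keep them off DNA. Id1 (chromosome 2, 152561987-152563146, plus strand) moved from 1489 and 2441 to 6019 and 5568 (1.60 ± 0.17), a call lost against all untreated libraries (1.13) or without No Dox replicate 1 (1.25). Id2, from 2547 and 2808 to 8788 and 5163 (1.33 ± 0.18, adjusted p = 1.48e-05), and Id3, from 1761 and 2759 to 5220 and 6015 (1.35 ± 0.19, adjusted p = 1.61e-05), were higher in both Dox libraries but under the size threshold. Id4 was at 206 and 175 and then at 235 and 161 (0.04 ± 0.23, adjusted p = 0.915). The Dox effects on Id1, Id2 and Id3 exceeded those in iGfi1, by 1.97 ± 0.23, 2.00 ± 0.26 and 1.93 ± 0.26 (adjusted p = 2.05e-05, 4.27e-05 and 6.97e-05). Against all untreated libraries, the differences for Id1 and Id3 were 1.46 and 1.26, under the size threshold. Against iAtoh1 the differences were −0.11 ± 0.23, −0.49 ± 0.26 and −0.05 ± 0.26 (adjusted p = 0.8, 0.222 and 0.922). Of 23 Id and BMP pathway genes, 4 rose and 1 fell. The ligands Bmp7, from 172 and 488 to 1915 and 2097 (2.79 ± 0.39), and Bmp6, from 59.2 and 119.9 to 368 and 483 (2.31 ± 0.34), rose, as did the BMP antagonist Chrd, from 124 and 119 to 733 and 547 (2.37 ± 0.26).

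Of 24 genes known as Gfi1 targets in blood, 1 rose, Id1, and 4 fell (median −0.33). Besides Gfi1b, the cytokine Csf1 fell from 1450 and 1241 to 256 and 237 (−2.44 ± 0.30). Its receptor Csf1r fell from 126 and 55.6 to 14.8 and 17.0 (−2.33 ± 0.53), a call lost against all untreated libraries (−1.21, adjusted p = 0.106). With a library left out, the count of rises was 0 without No Dox replicate 1 and 3 without No Dox replicate 2 or Dox replicate 2. Of 19 SNAG-domain factors and corepressors, 4 rose and 3 fell, and Snai2, a SNAG repressor of mesenchyme and neural crest, fell from 3273 and 2741 to 871 and 329.5 (−2.48 ± 0.44). Only 2 of this list rose without Dox replicate 2.

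Hox genes, which set position along the body axis, moved in both directions. Of 34 tested, 4 rose and 11 fell (median −0.03), against 1 and 0 in iAtoh1, 0 and 6 in iGfi1, and 1 and 18 in iGPA. In the Hoxc cluster 7 of 8 tested genes fell, among them Hoxc8 from 323 and 512 to 20.2 and 45.2 (−3.70 ± 0.41), Hoxc6 from 309 and 371 to 57.6 and 64.3 (−2.46 ± 0.27), Hoxc5 from 69.6 and 80.7 to 18.1 and 8.54 (−2.49 ± 0.47) and Hoxc13 from 31.3 and 33.6 to 2.13 and 6.10 (−2.83 ± 0.47). Hoxb6 (chromosome 11, 96153790-96162883, plus strand) fell from 284 and 261 to 25.5 and 0 (−5.73 ± 0.86) and Hoxa13 from 84.8 and 127 to 4.25 and 22.0 (−3.25 ± 0.53). Some falls rested on single libraries. Without Dox replicate 1, Hoxa11 (−1.18), Hoxc9 (−1.43), Hoxc10 (−1.10) and Hoxd13 (−1.39) lay under the size threshold. Hoxc4 did so without Dox replicate 2 (−1.40) and against all untreated libraries (−1.30), as did Hoxa11 against the latter (−1.22). Hoxd1 (chromosome 2, 74601037-74603200, plus strand) rose from 203 and 249 to 1029 and 1018 (2.18 ± 0.25). Of the other rises, Hoxb1 (2.99 ± 0.94) lost its call without No Dox replicate 1 (2.67, adjusted p = 0.0969) or without Dox replicate 2 (1.20, adjusted p = 0.334). Hoxd3 (1.52 ± 0.24) lost it without No Dox replicate 1 (1.48) or without Dox replicate 1 (1.48), and Hoxd4 (1.64 ± 0.34) without Dox replicate 2 (1.39). The number of rises was 2 without No Dox replicate 1 or Dox replicate 2, 7 without Dox replicate 1 and 8 against all untreated libraries.

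As a signed value, the Dox effect was smaller in iG+A than in iAtoh1 for 10 of the 34 Hox genes, against 2.44% of all genes, and larger for Hoxd1. Hoxc8, for example, stood at −3.70 in iG+A and −0.06 in iAtoh1, a stronger fall in iG+A. In a fit of these lines alone, the genes that lost this call included Hoxa11, Hoxa13, Hoxb6, Hoxc9 and Hoxc13, and Hoxd1 lost it against all untreated libraries. The difference was −3.40 ± 0.38 for Hoxc6 (adjusted p = 1.17e-05) and −3.65 ± 0.57 for Hoxc8 (adjusted p = 0.000285). Against iGPA it was larger for 6, against 0.600% of all genes, namely Hoxb7, Hoxb8, Hoxc6, Hoxd4, Hoxd8 and Hoxd9. Without No Dox replicate 1 or Dox replicate 2 of iG+A, 3 were left, since Hoxc6, Hoxd4 and Hoxd8 lost the call, and each of these also lost it without at least 1 library of iGPA. In a fit of these lines alone, Hoxb7, Hoxb8, Hoxc6 and Hoxd4 lost it, with an adjusted p of 0.0646 for Hoxb8. Hoxb8 differed by 2.80 ± 0.42 (adjusted p = 0.000559) and Hoxd9 by 2.32 ± 0.37 (adjusted p = 0.000952). In iG+A, Hoxb8 was at 408 and 363 and then at 327 and 795, and Hoxd9 at 521 and 620.4 and then at 382 and 635.

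**Figure D3:**
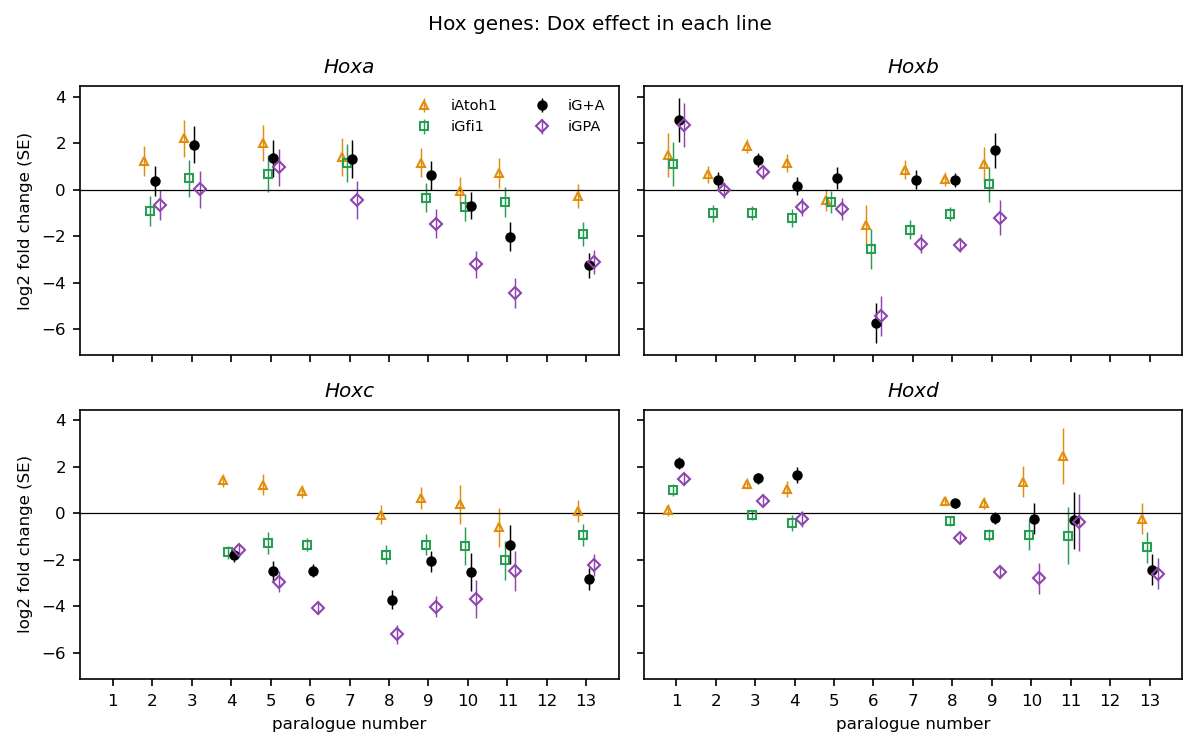
Log2 fold change with Dox (y axis, error bars give the SE) of tested Hox genes by paralogue number (x axis) in the 4 clusters, for iAtoh1, iGfi1, iG+A and iGPA. In iG+A, Hoxc8 lay at −3.70 and Hoxb6 at −5.73, and Hoxd1 at 2.18.

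Genes of mesenchyme and extracellular matrix were among the largest falls. Lum (chromosome 10, 97028135-97035337, plus strand) and Fmod (chromosome 1, 135933831-135944854, plus strand), small proteoglycans that bind collagen fibrils, fell from 1214 and 741 to 30.8 and 1.22 (−6.82 ± 0.95) and from 629 and 233 to 10.6 and 1.22 (−6.24 ± 0.88). The collagen genes Col1a2, from 22340 and 17250 to 1569 and 537 (−4.42 ± 0.42), and Col5a2, from 2962 and 1648 to 118 and 40.3 (−4.98 ± 0.65), and the matrix genes Svep1, from 9402 and 5508 to 345 and 76.9 (−5.46 ± 0.62), and Smoc2, from 5847 and 4269 to 215 and 70.9 (−5.32 ± 0.63), fell with them. Hand1, a bHLH factor of lateral and extraembryonic mesoderm, fell from 15370 and 20690 to 1961 and 1287 (−3.49 ± 0.32). Of 31 genes of mesoderm and mesenchyme, 12 fell and 1 rose (median −0.93). The rise was that of Meox1, a somite factor, from 8.12 and 17.9 to 92.6 and 297 (3.67 ± 0.55). Of the defining markers, Col1a1 fell from 53670 and 45110 to 14300 and 6659 (−2.33 ± 0.38), while Col3a1 was at 19640 and 14810 and then at 8756 and 3981 (−1.53 ± 0.65, adjusted p = 0.0667) and Pdgfra at 4461 and 4990 and then at 5464 and 2780 (−0.28 ± 0.27, adjusted p = 0.44). The summed level of the list was 433400 and 353100 without Dox and 142500 and 167000 with Dox. The count of 12 went to 8 without Dox replicate 2. The part of the sort in these falls was not tested.

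The 15 largest falls were ranked among genes with a mean of at least 50 normalized counts without Dox. Genes at 0 in 1 untreated library and above 50 in another were left out. Other genes among these falls were Plac1, a placental gene, from 1015 and 939.6 to 9.48 and 25.4 (−5.88 ± 0.39), the cytokine receptor subunits Csf2rb2, from 1256 and 937 to 31.9 and 15.9 (−5.53 ± 0.61), and Csf2rb, from 3406 and 2275 to 142 and 68.9 (−4.80 ± 0.55), and Tac2, a tachykinin precursor, from 1140 and 609 to 56.5 and 8.57 (−5.15 ± 0.77). Csf2rb and Csf2rb2 are close copies between which reads can be split, so their separate values are uncertain. Nxf7, Islr and Vgll3 had log2 fold changes between −5.36 and −4.73.

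Markers of other lineages of the EB moved as well. Of 22 pluripotency genes, 9 fell and none rose by limma (none with an unadjusted p below 0.05 either). The median was −1.75, beside −1.60 in iAtoh1, −0.78 in iGfi1 and −0.76 in iGPA. Dppa3, of germ cells and early embryos, fell from 104 and 129 to 2.13 and 3.66 (−4.94 ± 0.71) and Dppa5a from 522 and 1002 to 36.0 and 101 (−3.56 ± 0.83). Pou5f1, a defining marker, was at 559 and 1057 and then at 174 and 564 (−1.29 ± 0.80, adjusted p = 0.207). The count of 9 went to 2 without No Dox replicate 2 and to 2 without Dox replicate 1, and was 14 against all untreated libraries. Of 21 endoderm genes, 8 fell and none rose by limma (2 with an unadjusted p below 0.05). The median was −0.76. Ttr, of visceral endoderm and liver, fell from 211 and 817 to 30.9 and 19.5 (−4.03 ± 0.67), Afp from 12.8 and 59.4 to 0 and 2.44 (−3.96 ± 0.94) and Dab2, an endocytic adaptor, from 7057 and 5447 to 1135 and 444 (−3.13 ± 0.37). Of 18 epithelial genes, 5 fell and 1 rose, with 8 falls against all untreated libraries. The keratins Krt19, from 832 and 1157 to 72.3 and 78.1 (−3.69 ± 0.26), and Krt8, from 5722 and 7552 to 1858 and 763 (−2.46 ± 0.30), fell, and Cldn3, a tight-junction protein, rose from 26.7 and 60.7 to 393 and 341 (3.15 ± 0.58). The defining markers Cdh1, at 608 and 1662 and then 921 and 1997, and Epcam, at 371 and 1001 and then 289 and 388, did not pass the threshold.

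Of 32 blood and vessel genes, 4 rose, 7 fell and 21 did not pass the threshold (median −0.33). The embryonic globins fell, Hbb-bh1 from 315900 and 238400 to 23750 and 26950 (−3.44 ± 0.49), Hba-x from 142500 and 114800 to 11440 and 13610 (−3.36 ± 0.52) and Hbb-y from 16040 and 16000 to 638 and 1141 (−4.23 ± 0.79). Reads can be shared among globin copies. Klf1, an erythroid factor, fell from 2838 and 2140 to 586 and 855 (−1.80 ± 0.38), a call lost against all untreated libraries (−1.03, adjusted p = 0.0579). In iGfi1 the log2 fold changes of Hbb-bh1 and Klf1 were 0.30 and 1.25, and in iAtoh1 −3.57 and −2.92. For 11 of the 32 genes the effect, as a signed value, was lower in iG+A than in iGfi1, against 3.37% of all genes, Hbb-bh1 and Klf1 among them. The 4 rises were of factors of early endothelium and its progenitors. Etv2 moved from 178 and 341 to 1464 and 3322 (3.16 ± 0.39), Sox18 from 317 and 342 to 1747 and 2847 (2.76 ± 0.48), Sox7 from 281 and 439 to 1369 and 2008 (2.24 ± 0.35) and Lmo2, which red cells use too, from 2421 and 2338 to 8024 and 17720 (2.33 ± 0.29). The endothelial markers Kdr, at 5659 and 7430 and then 13550 and 13830 (1.08 ± 0.17, adjusted p = 5.96e-05), and Cdh5, at 2550 and 2638 and then 3690 and 4885 (0.71 ± 0.33, adjusted p = 0.0925), did not pass the threshold. Against all untreated libraries, 4 genes of the list fell in place of 7.

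Of 21 cardiac and muscle genes, 5 rose and 1 fell. Myod1, the bHLH factor of skeletal muscle, moved from 0 and 1.12 to 43.6 and 76.9 (5.34 ± 0.56), Actc1, cardiac actin, from 277 and 1242 to 5805 and 4494 (3.12 ± 0.66) and Des, desmin, from 1929 and 2105 to 9753 and 8145 (2.14 ± 0.37), while Acta1, skeletal actin, fell from 74.3 and 72.9 to 7.44 and 19.5 (−2.50 ± 0.54). The cardiac markers Nkx2-5, at 8.13 and 94.2 and then 4.25 and 14.6 (−1.70 ± 0.83, adjusted p = 0.108), and Myl7, at 58.1 and 642 and then 307 and 109.8 (−0.08 ± 0.96, adjusted p = 0.958), did not pass the threshold. Without No Dox replicate 1, 3 of these genes rose and 3 fell, and without Dox replicate 1, 3 rose. Against all untreated libraries, 4 fell.

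None of 37 cell cycle genes passed the limma threshold, while 25 were lower and 1 higher with an unadjusted p below 0.05, with a median of −0.43. Mki67, a marker of cycling cells, was at 39380 and 30870 and then at 19580 and 20550 (−0.80 ± 0.13, adjusted p = 6.35e-05), under the size threshold. Of 28 immediate early and dissociation-stress genes, 4 fell and 1 rose. Ccn1 fell from 9767 and 9181 to 1126 and 1063 (−3.11 ± 0.55), Fos from 19170 and 18850 to 4988 and 4430 (−2.02 ± 0.58) and Klf6 from 8919 and 7760 to 2277 and 2128 (−1.92 ± 0.22). The summed level of this list was 156400 and 148500 without Dox and 74720 and 77800 with Dox. Of 15 CDK inhibitors and Rb family genes, 2 rose and 1 fell, and of 18 regulators and genes of cilia, 1 fell. Of 15 p53 targets and apoptosis genes, 1 fell, the death receptor Fas, from 179.8 and 136 to 40.4 and 30.5 (−2.12 ± 0.35).

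Many of the genes that changed with the pair were called in neither single-factor line. In iAtoh1, 486 genes rose (2.89% of those tested) and 424 fell (2.52%). In iGfi1, 362 rose (2.15%) and 449 fell (2.67%), and in iGPA, 1456 rose (8.65%) and 894 fell (5.31%). Of the 1238 genes that rose in iG+A, 294 also rose in iAtoh1, 23.7% of the iG+A list and 60.5% of the iAtoh1 list. With iGfi1, 202 were shared (16.3% and 55.8%), and with iGPA 899 (72.6% and 61.7%). The 794 that rose in neither single-factor line were 64.1%. Of the 833 genes that fell, 186 also fell in iAtoh1 (22.3% and 43.9%), 239 in iGfi1 (28.7% and 53.2%), 511 in iGPA (61.3% and 57.2%) and 466 (55.9%) in neither single-factor line. A call in one line and none in another is not a difference between them, so the Dox effects were tested against each other, each with the same iG+A libraries.

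As a signed value, the Dox effect was larger in iG+A than in iAtoh1 for 747 genes (4.44%). It was smaller for 410 (2.44%), which include genes that fell more strongly in iG+A. Csf2rb2, at −5.53 in iG+A and 0.29 in iAtoh1, was among the latter (adjusted p = 0.000173), as was Islr, at −4.96 and 0.66 (adjusted p = 8.92e-06). Of the 486 genes that rose in iAtoh1, 85 had a smaller effect in iG+A and 7 fell there. Against iGfi1, the effect was larger for 871 genes (5.17%) and smaller for 567 (3.37%). Acvr1c, at 8.22 and −0.60 (adjusted p = 3.25e-05), Mybpc1, a muscle myosin-binding protein, at 7.22 and −0.94 (adjusted p = 4.16e-06), and Insm1, at 7.86 and 0.37 (adjusted p = 1.55e-06), were higher. Slc4a1, the anion exchanger of red cells, at −3.49 and 1.28 (adjusted p = 0.000574), was lower. Without No Dox replicate 1 of iG+A, the number of smaller effects was 322.

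Against iGPA, which adds Pou4f3, the Dox effect was larger in iG+A for 101 genes (0.600%) and smaller for 270 (1.60%). Pcdh20, a protocadherin, moved from 3.48 and 4.48 to 1169 and 825 in iG+A, with a difference of 3.93 ± 0.55 (adjusted p = 0.000259), and Shox2 differed by 3.74 ± 0.50 (adjusted p = 0.000174). Sncg, gamma-synuclein of sensory neurons, was at 30.2 and 30.3 and then at 44.7 and 74.4 in iG+A and differed by −7.26 ± 0.52 (adjusted p = 2.07e-07). Kcnv1, a modifier subunit of potassium channels, was at 4.20 and 1.88 and then at 1.78 and 0 and differed by −7.81 ± 1.05 (adjusted p = 0.000183). The number of larger effects was 65 without No Dox replicate 1 of iG+A and 63 without No Dox replicate 1 of iGPA.

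The effect of the pair was also set against the sum of the effects of Atoh1 and Gfi1 alone, on the log2 scale. Each of these effects compares sorted mVenus+ cells with whole EBs, so any effect of the sort, or of Dox itself, enters the sum through both iAtoh1 and iGfi1 but the effect of the pair through iG+A alone. A difference of 0 is therefore not the value that additive factors would give, and in the counts and values that follow the factors and this offset cannot be told apart. The effect in iG+A lay above the sum for 336 genes (2.00%) and below it for 168 (0.998%). Acvr1c lay above by 8.24 ± 1.34 (adjusted p = 0.00259), with effects of 0.58 in iAtoh1 and −0.60 in iGfi1. Sst lay above by 7.83 ± 1.27 (adjusted p = 0.00245), with effects of −0.52 and 2.00. Tubb3 lay below the sum, at −3.99 ± 0.62 (adjusted p = 0.00185), as did Gfra3, a receptor subunit for artemin, at −4.41 ± 0.70 (adjusted p = 0.00208), with effects of 5.87 in iAtoh1 and 1.38 in iG+A. These counts moved with single libraries. Above the sum there were 160 genes without No Dox replicate 1 of iG+A, 187 and 198 without No Dox replicates 1 and 2 of iGfi1, 216 without Dox replicate 1 of iGfi1 and 223 without Dox replicate 1 of iAtoh1. Below it there were 63 without No Dox replicate 1 of iG+A, 313 without its No Dox replicate 2, 89 and 91 without No Dox replicates 1 and 2 of iGfi1 and 91 without Dox replicate 1 of iAtoh1.

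**Figure D4:**
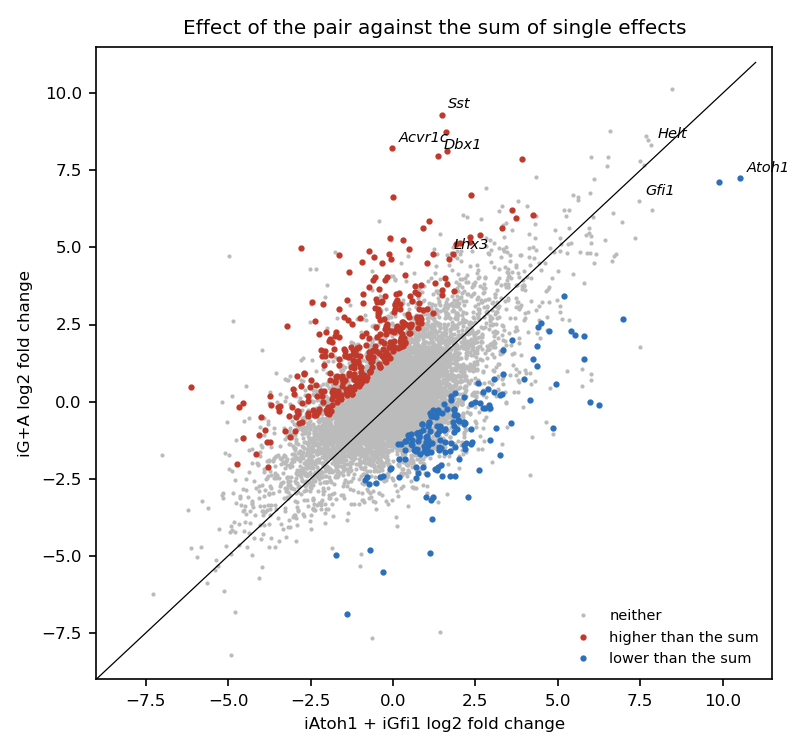
Log2 fold change with Dox in iG+A (y axis) against the sum of those in iAtoh1 and iGfi1 (x axis), 1 point per gene tested. The 336 genes called above the sum are red and the 168 below it blue, and Sst and Acvr1c lie above the line of equality. Any effect of the sort or of Dox itself is contained in each of the 3 effects, so this line is not where additive factors would lie.

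**Figure D5:**
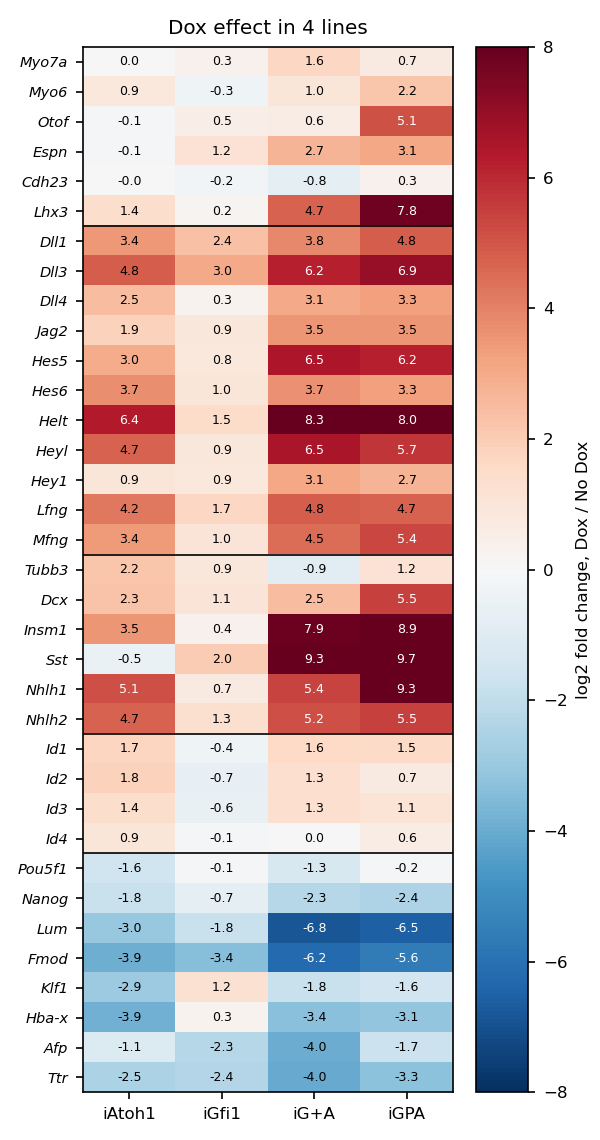
Log2 fold change with Dox (colour, value printed in each cell) of HC, Notch, neuronal, Id and other lineage genes in iAtoh1, iGfi1, iG+A and iGPA. Insm1 stood at 7.86 in iG+A and 3.53 in iAtoh1, and Tubb3 was below 0 in iG+A alone of the 4 lines.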

How the data were processed

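RNA-seq of the 28 libraries had been processed by the authors with cutadapt, kallisto and DESeq2 on mm9, per the submitters' processing notes, which give no versions. The deposited table holds log2 values of normalized counts plus 1 for 19421 genes, and the authors deposited these log2 values without raw counts, so no count model was fitted here. Gene identifiers were named from a RefSeq table (GRCm38.p6, used for names only), which matched 19314 and left 107 without a symbol.

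The 16837 genes that reached 10 normalized counts in 2 or more libraries were fitted with limma 3.58.1 with a mean-variance trend in R 4.3.3. The fit had 14 groups (line by Dox) of 2 libraries each, which share 1 estimate of the spread on 14 residual degrees of freedom. Each contrast was adjusted by the Benjamini-Hochberg method over all genes tested. Differences between lines were contrasts of their Dox effects, and the sum of the single factors was subtracted on the log2 scale. The libraries of a group were biological replicates of a line, so p-values measure the spread between such replicates. The median SE of a Dox effect in iG+A was 0.184. The fit was tested on simulated data with known changes.

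The comparison and the 32 gene lists were chosen with earlier results of these data known, and list counts are descriptions. Genes are named as markers of the study, as the 15 largest rises and falls, as up to 5 leading members of each list, as the 5 largest differences between lines in each direction, or as members of the Id, Hox and Notch families. Genes listed at 0 in 1 untreated library and above 50 in another were not named by these rules. Other list members and defining markers (for example Ebf3, Rcor2, Syp, Col1a1, Pou5f1 and Kdr) were named after their values were seen. A few genes that met these rules are not reported here. Symbols follow the table's current names, Prrxl1 for Drgx and Ccn1 for Cyr61. Alternatives were another pseudocount, filter, scaling, variance model, size threshold, control group and choice of lines, a replicate block, and each library left out. Figures were drawn with Python 3.11.15 and matplotlib 3.10.9.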

Additional observations from a re-analysis of the deposited data

Results flagged for a closer look

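The Dox effect was past the threshold in opposite directions in iG+A and iAtoh1 for 11 genes that rose in iG+A and 7 that fell. Of these, 15 are given here, each with a mean of at least 50 normalized counts in 1 or more groups of libraries. Their difference between the lines is at least 3 by this choice, so its size and its adjusted p, from a contrast in limma, describe these genes and add no support. Those given that rose in iG+A and fell in iAtoh1 were Stk32a (difference 6.81), Cldn3 (5.10), Clec9a (4.97), Tfap2b (4.55), Clec1b (3.87), Vwf (3.78), Car8 (3.55), Dmbx1 (3.42) and Ptpn7 (3.15). Stk32a, a kinase gene, stood at 4.79 in iG+A and −2.01 in iAtoh1 (log2 fold changes, adjusted p of the difference 6.51e-05), and Cldn3 at 3.15 and −1.95 (adjusted p = 0.000324). Those given that fell in iG+A and rose in iAtoh1 were Ccdc141 (−4.46), the vesicular monoamine transporter Slc18a1 (−3.95), Srgap3 (−3.50), the neuronal splicing regulator Srrm3 (−3.47), Slc10a4l (−3.14) and Jakmip2 (−3.01). Ccdc141 stood at −1.59 in iG+A and 2.87 in iAtoh1 (adjusted p = 1.34e-05). The rise of Tfap2b in iG+A, 2.20 against its own No Dox libraries, was 0.55 against all untreated libraries (adjusted p = 0.574) and lost its call without No Dox replicate 1 (adjusted p = 0.133), without Dox replicate 2 (adjusted p = 0.211), with a pseudocount of 5 and in a fit of the compared lines alone. That of Dmbx1 lost its call without Dox replicate 1 (1.07, adjusted p = 0.106), with quantile normalization and in a fit of the compared lines alone. Several of these calls lie close to the size threshold of 1.5 in 1 or both lines, as for Slc10a4l, at −1.58 and 1.56.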

How the results depend on the processing

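None of the 273 genes called in iG+A and followed, and none of the 81 differences between lines followed, changed direction under the alternatives. Genes that were not called can change sign with a single library, as Barhl2 did, at −0.87 without Dox replicate 2, and most such genes were not followed. The medians of several lists crossed 0, among them blood and vessel genes (0.27) and neural progenitor genes (−0.13) against all untreated libraries and cardiac and muscle genes (−0.47) without No Dox replicate 1. Of 279 genes followed in iG+A, 273 of them called, 92 gained or lost a call under at least 1 alternative, as did 35 of 81 differences between lines. With quantile normalization, 53.4% of the changes in iG+A were upward, and with scaling to the 75th percentile 61.2%. Genes below the sum of the single factors numbered 278 with quantile normalization, 264 with the replicate block, 259 against all untreated libraries and 256 at a log2 fold change of at least 1. Fitted on the compared lines alone, they numbered 57, with 144 above the sum, and the larger and smaller effects were 469 and 249 against iAtoh1 and 39 and 144 against iGPA. Larger effects than in iGPA numbered 238 against all untreated libraries and 154 at a log2 fold change of at least 1. At that size, 1342 genes fell in iG+A, 619 effects were smaller than in iAtoh1 and 1359 larger than in iGfi1. With each library left out in turn, 1100 to 1245 genes rose and 677 to 846 fell in iG+A. Larger and smaller effects were 588 to 751 and 336 to 493 against iAtoh1, 679 to 977 and 322 to 658 against iGfi1, and 63 to 118 and 200 to 285 against iGPA, and 160 to 455 genes lay above and 63 to 313 below the sum. Counts of 3 or fewer genes of a list that rose or fell moved by at most 2 with a library left out. An arm left with 1 library was assumed to vary like the other groups. The cause of these shifts was not tested. With the replicate number as a block, 1256 genes rose and 877 fell, 1225 and 826 of them called without it. Dox and No Dox libraries of the same number deviated together with r = 0.16 in iG+A and 0.10 to 0.25 over the lines, but the labels do not say that a number marks a shared clone or day. The estimated depth of 30.3 M to 35.3 M reads limits genes near the filter, where 1 read is a large part of the value.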
